A study of Rattus norvegicus with 9 samples.

Results

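The table of tRNA-derived fragments (tRFs) that changed in islets of low-protein (LP) exposed rats held 14 distinct fragments of nuclear glutamate tRNAs, out of 192 distinct fragments in all. They were found as the rows whose host name begins with tRNA-Glu-, that is tRNA-Glu-CTC in 10 rows and tRNA-Glu-TTC in 14 rows, and each sequence was kept once. Small RNAs were sequenced from pancreatic islets of 22-day-old male Sprague Dawley rats, the offspring of dams on an LP diet (5.3% protein, n = 4) or on a chow diet (CD, 16.8% protein, n = 5) during gestation and lactation. The labels name no transgene or drug. The study lists its animals singly but does not give their litters, so errors and p-values cover the spread between these samples only. The model is one of susceptibility to diabetes, and the question was which islet tRFs differ under it. The table lists only fragments that the authors had called changed in this very contrast. Glutamate fragments that did not change are therefore not in view, and every fold change below tends to be too large and is a description rather than independent evidence.

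Transfer RNAs for glutamate read the GAA and GAG codons, with the anticodons TTC and CTC written in DNA letters. A tRNA folds into an acceptor stem and 3 main arms. The D arm lies towards the 5′ end, the anticodon arm in the middle, and the T arm towards the 3′ end. The loop of the T arm often holds the letters GTTCGA, and commonly a methylated adenosine. Mature tRNAs receive a CCA tail. Cleavage in or near the loops yields pieces of various lengths, and glutamate tRNAs are a known source of 5′ pieces, which start at the first base of the tRNA. The RNA had been treated before library construction to free blocked ends and to remove base methylations, among them that of the T loop, which would otherwise stop reverse transcription.

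Most glutamate fragments of the table came from the T arm. The motif GTTCGANNC, searched on the fragment strand as a mark of the T loop, was found in 11 of the 14, and in 82 of all 192 fragments (42.7%). T arms with a variant of these letters, such as the GTTCAA in the study's mt-tRF-Leu, are not counted, so the share of T-arm fragments may be larger. All 10 fragments listed under both hosts belonged to these 11, and no fragment was listed under tRNA-Glu-CTC alone, so the counts of these 10 cannot be assigned to an anticodon. None of the 14 ended in CCA, where 79 of all 192 fragments did, and none named a host outside tRNA-Glu. They were 23 to 32 nucleotides (nt) long. RefSeq annotates 20 genes for tRNA-Glu-CTC, 16 of them on 1 chromosome, and 10 for tRNA-Glu-TTC in the rat assembly GRCr8, each 72 nt long. Since the build behind the table is not given in the sources used here, no genome position is stated, and which of these copies a fragment came from is not known. The shared fragments overlap and merge without a conflict into a stretch of 35 nt, along which positions are counted from 1 at its 5′ end.

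The sequences of the shared T-arm fragments are shown because they differ only in where they start and stop. They are named Glu with their length in nt, with a letter where lengths coincide, and capitals mark the T-loop motif.
Glu 23: gcggcccggGTTCGATTCccggt
Glu 24: cgcggcccggGTTCGATTCccggt
Glu 27: cggcccggGTTCGATTCccggtcaggg
Glu 28: gcggcccggGTTCGATTCccggtcaggg
Glu 29a: cgcggcccggGTTCGATTCccggtcaggg
Glu 29b: gcggcccggGTTCGATTCccggtcaggga
Glu 30a: cgcggcccggGTTCGATTCccggtcaggga
Glu 30b: cggcccggGTTCGATTCccggtcagggaac
Glu 31: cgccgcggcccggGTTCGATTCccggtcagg
Glu 32: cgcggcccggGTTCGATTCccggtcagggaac
Glu 31 started at position 1. Another 4 (Glu 24, 29a, 30a and 32) started at position 4, 3 (Glu 23, 28 and 29b) at position 5, and 2 (Glu 27 and 30b) at position 6. The 3′ ends fell at position 27 (Glu 23 and 24), 31 (Glu 31), 32 (Glu 27, 28 and 29a), 33 (Glu 29b and 30a) and 35 (Glu 30b and 32). Starts and stops thus came in combinations, with fragments of a common start stopping at up to 4 places.

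The other 4 fragments were listed under tRNA-Glu-TTC alone and are shown for their contrast with the shared set. In Glu-TTC 29 capitals again mark the T-loop motif, and in Glu-TTC 30 they mark the last 3 letters, which spell the anticodon.
Glu-TTC 29: aggcggcccggGTTCGACTCccggtgtgg
Glu-TTC 24: tggtctagcggttaggattcctgg
Glu-TTC 25: tggtctagcggttaggattcctggt
Glu-TTC 30: atggtctagcggttaggattcctggttTTC
Glu-TTC 29 aligned without gaps from position 3 to position 31 of the shared stretch and equalled it at 24 of 29 bases. The differences were C3A, C4G, T20C, C28G and A29T, given as the base of the shared stretch, its position there, and the base of Glu-TTC 29. The remaining 3 come from the D arm and the 5′ side of the anticodon arm. Glu-TTC 24 and Glu-TTC 25 lie within Glu-TTC 30, which starts 1 base earlier and runs on into the anticodon.

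**Figure D1:**
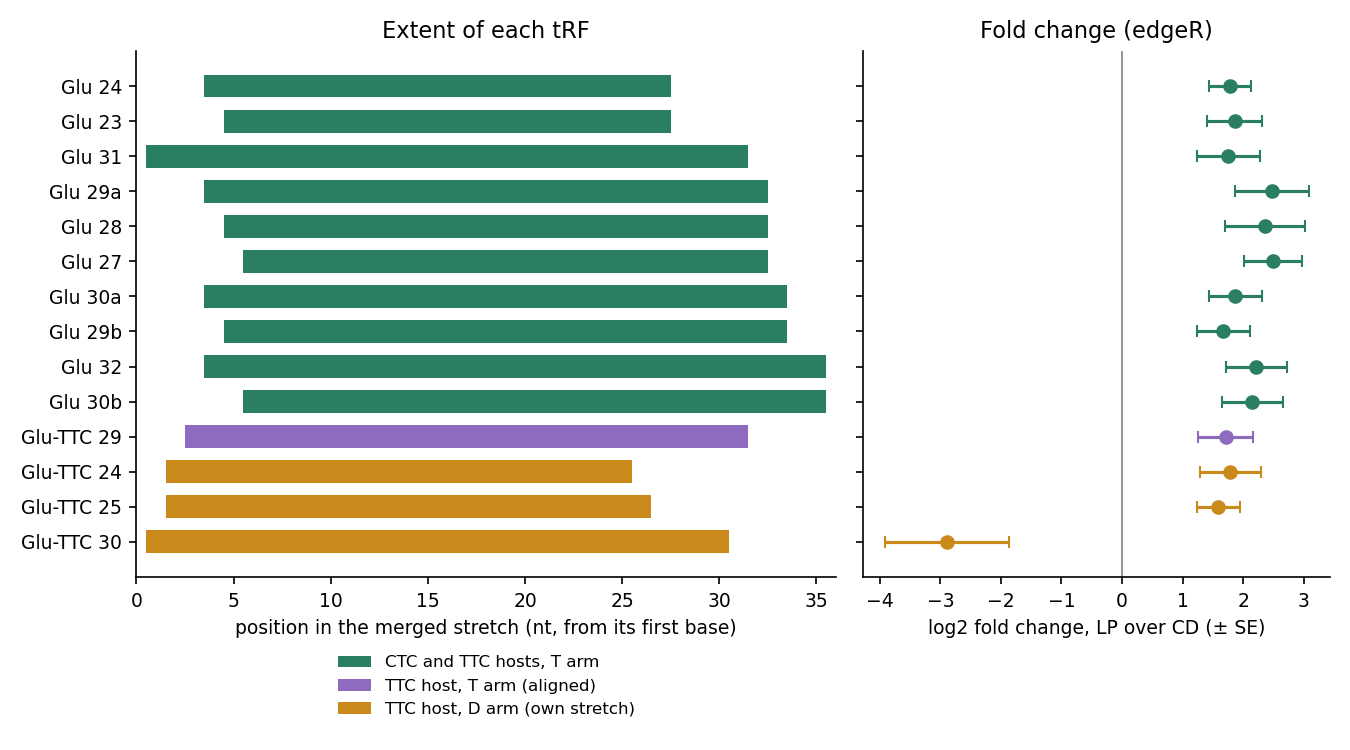
Left, extent of each tRNA-Glu tRF in nt; the 10 shared fragments and Glu-TTC 29 are placed on the shared stretch, and the 3 D-arm fragments on a stretch of their own. Right, log2 fold change of LP over CD with its SE (edgeR, 4 LP and 5 CD samples); 13 fragments lie between 1.59 and 2.49 and Glu-TTC 30 at -2.89.

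The deposited counts of the table summed to 12556 to 40166 per LP sample and 26166 to 34775 per CD sample. These are totals of the selected fragments and not library depths, which were not used here. Levels are given as normalized read counts, the counts divided by the authors' size factors (0.730 to 1.80 in LP, 0.625 to 1.20 in CD). Because the table lists tRNA fragments only, the islet label could not be checked against cell type markers, and in whole islets fewer cells of a type and less RNA per cell cannot be told apart. Errors of group means are SDs over 4 LP and 5 CD samples, and log2 fold changes are LP over CD with SEs, from edgeR's quasi-likelihood test with Benjamini-Hochberg adjustment over the 181 fragments that passed a filter on low counts. All 14 glutamate fragments passed the filter. The adjustment ran only over fragments that the authors had already selected as changed. An adjusted p here therefore does not correct for that selection.

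In LP islets 13 of the 14 glutamate fragments were higher and 1 was lower, by a change of at least 2-fold with an edgeR adjusted p under 0.05. The background is that 41.4% of the tested fragments of the table were higher by the same rule and 56.4% were lower. At 4-fold, 5 of the 14 were higher, where 17.1% of the tested fragments were. Of the fragments higher at 2-fold, 31 of 75 in the table and 5 of 13 in the glutamate set were also higher at 4-fold. Every LP sample lay above every CD sample for 11 of the 14, against 28.6% of the 192 fragments, which include the many that were lower. No glutamate fragment had every LP sample below every CD sample, against 47.9%. The median log2 fold change of the 14 was 1.82, and that of all tested fragments was -1.49. Fragments of other hosts that were nearer in kind had medians close to 1.82. The median was 1.8 for tRNA-Asp-GTC and 1.71 for fragments with the T-loop motif and no CCA end. For fragments of other hosts with 23 to 32 nt it was 1.56, while that of tRNA-Gly-GCC was -1.79. A rise of this size was thus not particular to the glutamate fragments. The background counts depend on the scaling: in the same edgeR fit, 76 fragments were higher and 55 lower with TMM over the table, against 75 and 102 with the authors' size factors. In DESeq2, over all 192 fragments, 76 were higher and 61 lower with size factors taken from the table, against 76 and 112 with the authors' size factors. The median of all fragments was -0.69 with TMM, and the median of the glutamate fragments stood 3.22 above it, where the difference was 3.32 with the authors' size factors.

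Summed over the 14 fragments, LP samples held 1241 to 1741 normalized read counts and CD samples 190.4 to 1016. Glutamate fragments took 6.52 to 10.7% of the table's raw counts in LP samples and 0.366 to 3.17% in CD samples. This share does not use size factors, and its groups did not overlap. It follows from the selected rows and is a share of them, not of the library.

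**Figure D2:**
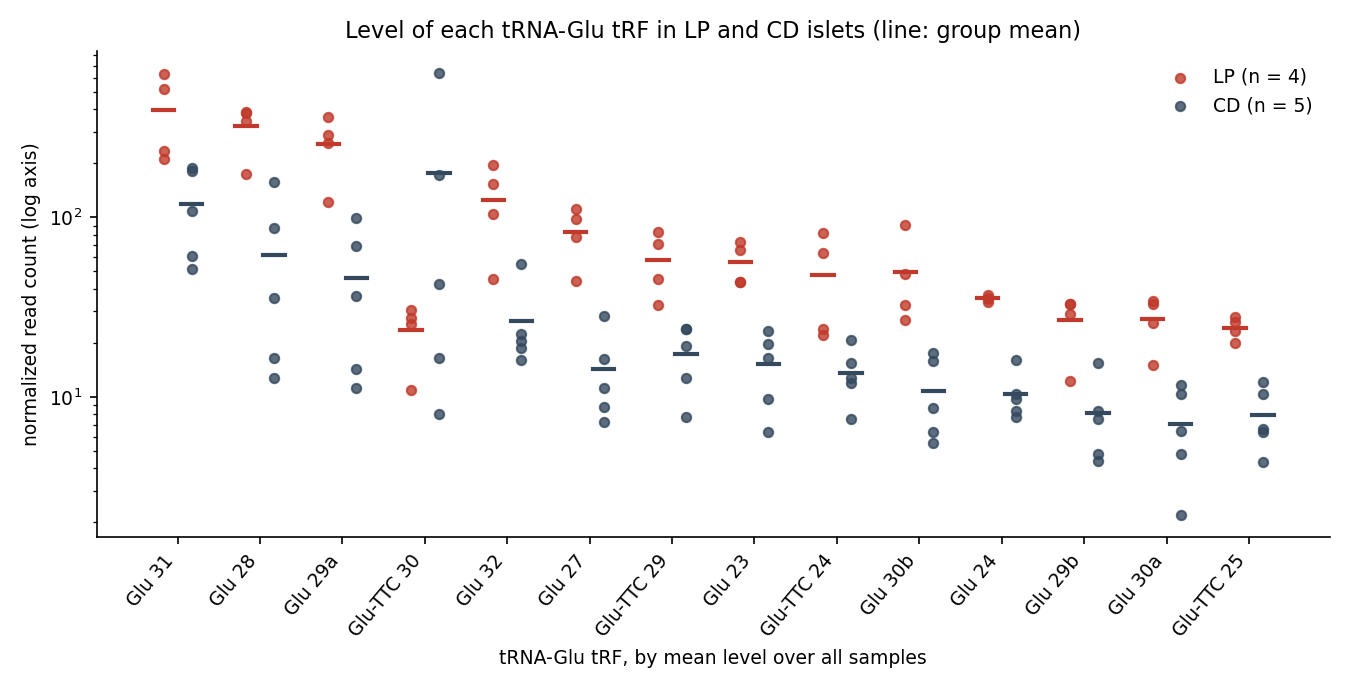
Normalized read count (log axis) of each tRNA-Glu tRF in the 4 LP (left of each pair) and 5 CD samples (right); points are samples and lines are group means. Glu-TTC 30 is the exception among the 14, with CD samples spread from 8.001 to 637.6 around an LP range of 10.96 to 30.3.

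Glu 31, the fragment with the most 5′ start, was the most abundant of the 14. It had 211, 521, 233 and 626 normalized read counts in LP 1 to LP 4, against 60.8, 51.7, 109, 188 and 181 in CD 1 to CD 5. The LP samples all lay above the CD samples, with LP 2 and LP 4 far above the other LP samples. Before scaling the groups overlapped, with 154, 523, 338 and 1125 raw counts in LP against 38, 47, 131, 174 and 175 in CD. Its log2 fold change was 1.75 ± 0.52 (edgeR adjusted p = 0.00576), and it ranged from 1.44 without LP 4 to 1.98 without CD 4.

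Glu 28 and Glu 29a, which stop 1 base further and differ from each other by 1 base at the start, came next. Glu 28 had 385, 383, 343 and 174 normalized read counts in LP 1 to LP 4, against 12.8, 16.5, 158, 35.6 and 86.8 in CD 1 to CD 5. Glu 29a had 360, 288, 261 and 121 in LP 1 to LP 4, against 11.2, 14.3, 98.9, 36.7 and 69.2 in CD 1 to CD 5. In both fragments LP 4 was the lowest of the LP samples and CD 3 the highest of the CD samples, and the groups did not overlap, although the gap between LP 4 and CD 3 was small for Glu 28. The log2 fold changes were 2.36 ± 0.66 for Glu 28 (edgeR adjusted p = 0.00534) and 2.47 ± 0.61 for Glu 29a (edgeR adjusted p = 0.0038). Without CD 3 they were 3.07 and 2.95.

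Glu 27, with the same stop and the start furthest inside, had a fold change like that of Glu 29a. It had 111, 97.7, 77.8 and 43.95 normalized read counts in LP 1 to LP 4, against 11.2, 8.81, 28.3, 16.2 and 7.23 in CD 1 to CD 5. The groups did not overlap, and again LP 4 was lowest in LP and CD 3 highest in CD. The log2 fold change was 2.49 ± 0.48 (edgeR adjusted p = 0.00152), the highest of the 14 in this fit by a margin far under its SE, and below those of Glu 28 and Glu 29a when CD 3 was left out (2.91).

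The fragments that stop at position 35, which hold the letters aac at their 3′ end, rose as well. Glu 32 had 196, 105, 45.4 and 153.5 normalized read counts in LP 1 to LP 4, against 16.0, 18.7, 22.4, 20.5 and 54.8 in CD 1 to CD 5. LP 3 lay below CD 5, so the groups overlapped by that pair of samples. Its log2 fold change was 2.22 ± 0.51 (edgeR adjusted p = 0.00303), and that of Glu 30b was 2.15 ± 0.50.

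The shorter fragments that stop at position 27, a few bases behind the T loop, rose with less spread in LP. Glu 24 was nearly level across the LP samples, at 33.9 to 36.7 normalized read counts, against 7.71 to 16.0 in the CD samples. Glu 23 spanned 43.4 to 72.6 in LP and 6.40 to 23.3 in CD. Neither overlapped between the groups, and their log2 fold changes were 1.78 ± 0.35 and 1.86 ± 0.45.

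The fragments that stop at position 33 were scarce. Glu 29b, with the smallest rise of the shared set, had 32.9, 32.9, 28.9 and 12.2 normalized read counts in LP 1 to LP 4, against 4.80, 4.40, 8.31, 7.55 and 15.5 in CD 1 to CD 5. LP 4 lay below CD 5, and these values rest on 22 to 42 raw counts per LP sample and 3 to 15 per CD sample. The log2 fold change was 1.67 ± 0.44 (edgeR adjusted p = 0.00453). Glu 30a had 15.02 to 34.3 normalized read counts in LP and 2.20 to 11.6 in CD, a log2 fold change of 1.87 ± 0.44. Over the 10 shared fragments the log2 fold changes ran from 1.67 to 2.49, a range no wider than 2 SEs of several of them. The differences between fragments were not tested.

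The stops of the shared fragments were used in different proportions from sample to sample, and this did not separate the groups. The stop at position 32 took 56.0, 49.3, 60.2 and 26.2% of the raw counts of the 10 fragments in LP 1 to LP 4, against 23.4, 26.5, 58.9, 26.1 and 34.8% in CD 1 to CD 5. The stop at position 31, which is Glu 31 alone, took 13.8, 33.5, 20.5 and 48.3% in LP 1 to LP 4, against 40.4, 34.6, 22.5, 55.4 and 38.6% in CD 1 to CD 5. LP 4 thus resembled most CD samples in its stops, and CD 3 resembled LP 1 and LP 3. For each of the 5 stops the ranges of the groups overlapped. Among the 4 fragments that start at position 4, the mean length weighted by counts was 29.5 ± 0.40 nt in LP and 29.25 ± 0.52 nt in CD, with overlapping ranges.

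**Figure D3:**
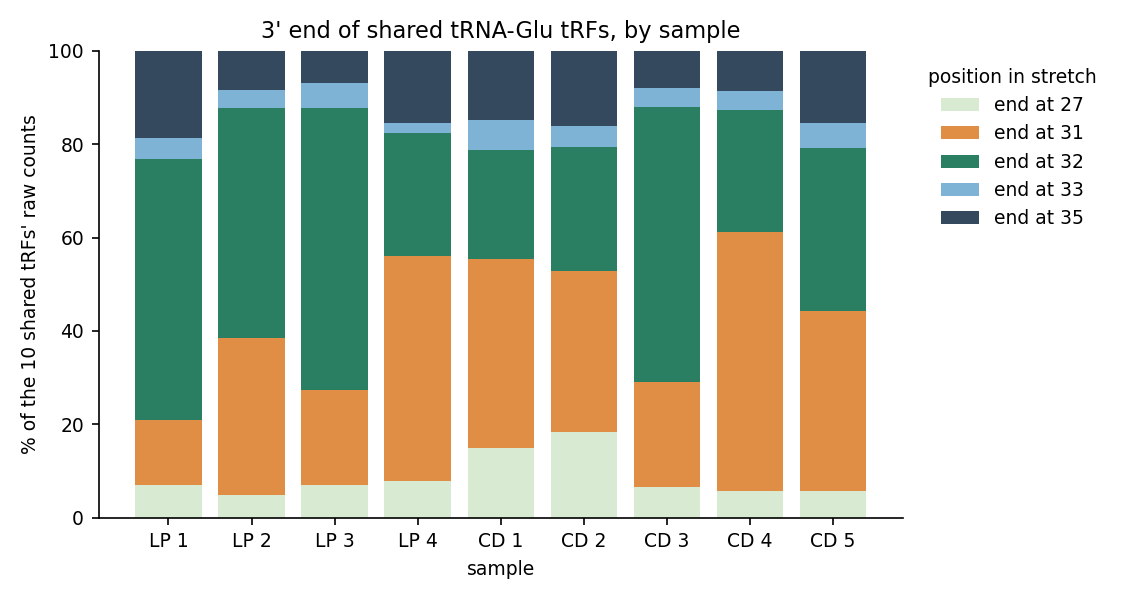
Share of the 10 shared fragments' raw counts that stop at each position of the merged stretch, as stacked bars per sample, LP 1 to LP 4 and then CD 1 to CD 5. The stop at 32 takes about as much of LP 4 (26.2%) as of CD 4 (26.1%), and CD 3 (58.9%) lies near LP 3 (60.2%).

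Some fragments with a common stop varied closely together across samples, and others did not. After each group's own mean was removed, Glu 28 and Glu 29a differed by 0.204 (root mean square of the log2 difference over the 9 samples), the closest of the 91 pairs of glutamate fragments. The second closest pair was Glu 31 and Glu-TTC 29, at 0.280, which differ in hosts and in sequence but stop at the same aligned position. The third was Glu 29b and Glu 30a, at 0.410, which stop at position 33. The fourth was Glu 23 and Glu-TTC 25, at 0.468, which come from different arms. The fifth was Glu 30b and Glu 32, at 0.497, which stop at position 35. The sixth was Glu 29a and Glu 30a, at 0.501, which share a start but not a stop. Other pairs with a common stop stood far lower in this order, Glu 23 and Glu 24 at 0.794 (rank 38), Glu 27 and Glu 29a at 0.828 (rank 44) and Glu 27 and Glu 28 at 0.909 (rank 55). The raw count of Glu-TTC 29 was 0.132 to 0.214 of that of Glu 31 in the LP samples and 0.126 to 0.211 in the CD samples. Glu 28 and Glu 31 share their hosts but neither a start nor a stop. The ratio of Glu 28 to Glu 31 was 1.82, 0.734, 1.48 and 0.278 in LP 1 to LP 4, against 0.211, 0.319, 1.45, 0.190 and 0.480 in CD 1 to CD 5. All 5 fragments that stop at position 32 or 33 were lowest in LP 4 among the LP samples, and both fragments that stop at position 31 were highest there. Glu 24 and Glu-TTC 25, which stop elsewhere, were also highest in LP 4. These groupings by stop were chosen after the values were seen, and no test was made of them.

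**Figure D4:**
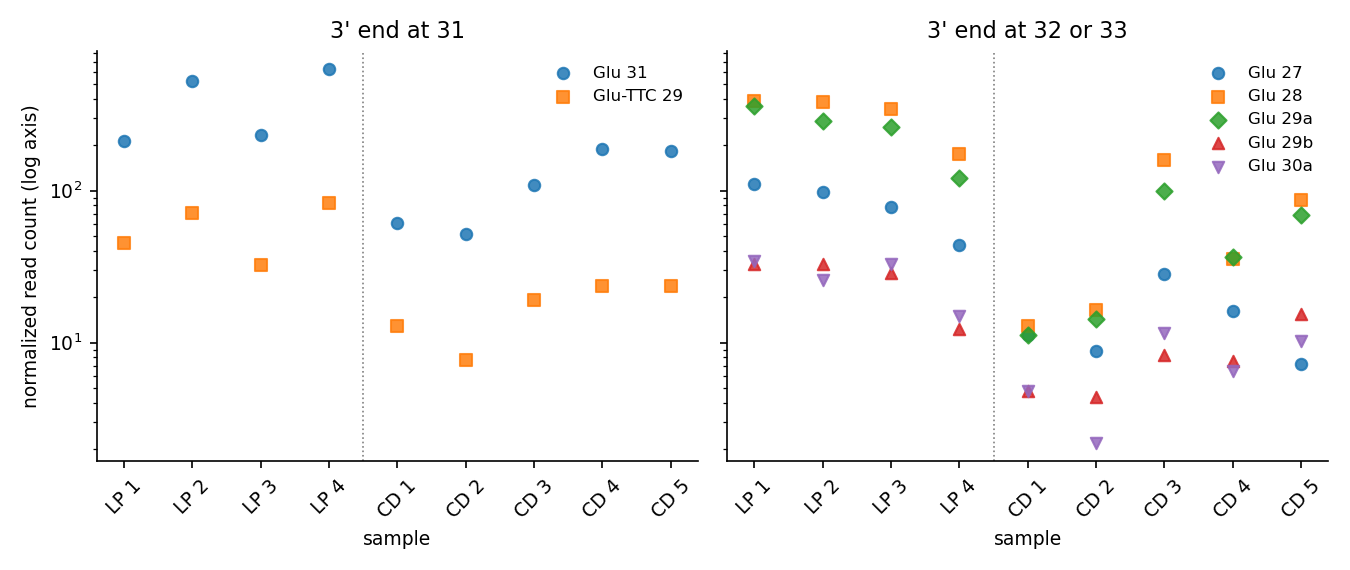
Normalized read counts (log axis) by sample, LP 1 to LP 4 left of the dotted line and CD 1 to CD 5 right of it, for the fragments that stop at position 31 (left panel) and at position 32 or 33 (right panel). Within LP, sample LP 4 is the highest in the left panel (626 for Glu 31) and the lowest in the right panel (174 for Glu 28).

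Glu-TTC 29, the T-arm fragment of the TTC host, had 45.2, 70.8, 32.4 and 82.3 normalized read counts in LP 1 to LP 4, against 12.8, 7.71, 19.1, 23.7 and 23.8 in CD 1 to CD 5. The groups did not overlap. Its log2 fold change was 1.71 ± 0.46 (edgeR adjusted p = 0.0048), close to the 1.75 of Glu 31.

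Of the nested D-arm fragments of tRNA-Glu-TTC, 2 were called higher in LP and 1, Glu-TTC 30, was called lower. The groups overlapped for Glu-TTC 30, and its call depended on CD 4, as given below. Glu-TTC 25, the smallest rise of all 14, had 26.0, 19.9, 23.4 and 27.8 normalized read counts in LP 1 to LP 4, against 6.40, 12.1, 6.65, 4.32 and 10.3 in CD 1 to CD 5, without overlap, and a log2 fold change of 1.59 ± 0.36 (edgeR adjusted p = 0.00286). Glu-TTC 24, shorter by 1 base at the 3′ end, spanned 22.0 to 81.7 in LP and 7.48 to 20.7 in CD, with a log2 fold change of 1.79 ± 0.50. Both rest on few reads in CD, 4 to 20 raw counts per sample.

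Glu-TTC 30, which ends with the anticodon, was the single fragment called lower in LP. It had 27.4, 10.96, 30.3 and 25.6 normalized read counts in LP 1 to LP 4, against 8.001, 16.5, 173, 638 and 42.4 in CD 1 to CD 5. The LP samples lay within the range of the CD samples, of which CD 4 and CD 3 were far above the rest. With 591 and 208 raw counts, CD 4 and CD 3 stood against 5, 15 and 41 in the other CD samples. The log2 fold change of -2.89 ± 1.03 (edgeR adjusted p = 0.0145) depended on CD 4. When that sample was left out, the value was -1.36 (edgeR adjusted p = 0.0944). It did not pass with TMM over the table either (log2 fold change -2.29, edgeR adjusted p = 0.0594), nor with size factors from the table (log2 fold change -2.21, DESeq2 adjusted p = 0.0727). Of the raw counts of the 3 nested fragments, Glu-TTC 30 took 9.74 to 40.0% in LP samples, against 29.4, 37.5, 92.4, 97.5 and 57.8% in CD 1 to CD 5. CD 4 and CD 3, which were high for this fragment, were among the 3 lowest of all 9 samples for Glu-TTC 25, but so was CD 1, the lowest of all for Glu-TTC 30.

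**Figure D5:**
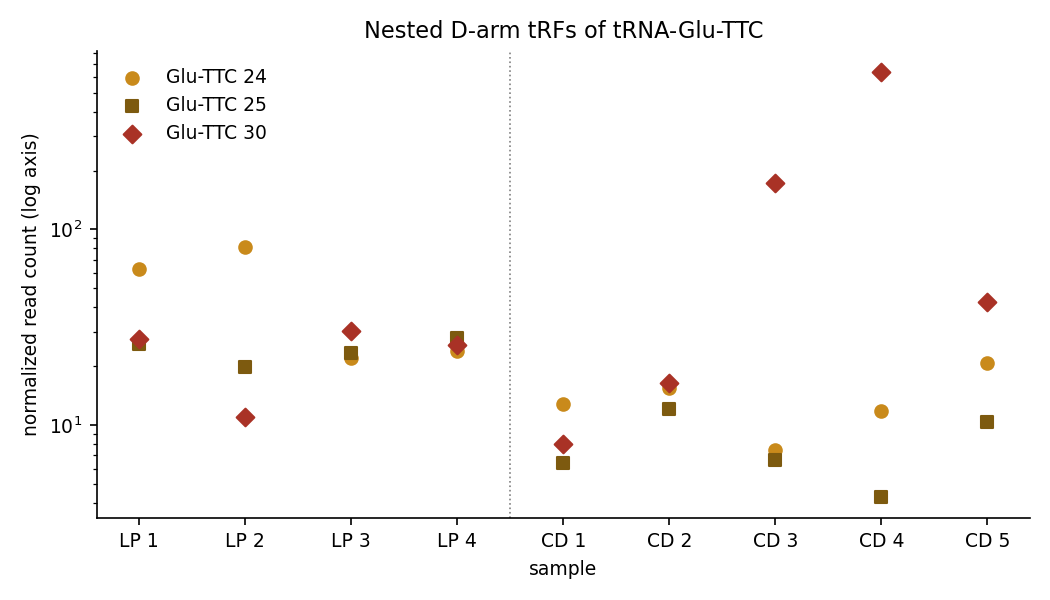
Normalized read counts (log axis) of the nested D-arm fragments of tRNA-Glu-TTC by sample, LP 1 to LP 4 left of the dotted line and CD 1 to CD 5 right of it. Glu-TTC 30 reaches 173 in CD 3 and 638 in CD 4, where Glu-TTC 25 is at 6.65 and 4.32.

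Outside the glutamate hosts, the fragments whose pattern over the 9 samples was nearest to that of Glu 31, by the root mean square difference of log2(normalized read count + 1) with each fragment centred on its mean, were a 32-nt and a 35-nt fragment of tRNA-Asp-GTC, at 0.211 and 0.420, and a 35-nt fragment of tRNA-His-GTG, at 0.467. The nearest of them had 27.4, 85.7, 24.1 and 101 normalized read counts in LP 1 to LP 4, against 8.001, 7.71, 11.6, 25.9 and 23.8 in CD 1 to CD 5. A 20-nt fragment of tRNA-Arg-TCT and a 34-nt fragment of tRNA-Val-AAC and tRNA-Val-CAC followed, at 0.624 and 0.626. Of the glutamate fragments only Glu-TTC 29 was as near, at 0.289. Since the table was selected on the contrast of the groups, part of any such likeness comes from the LP to CD difference that all these fragments share.

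Counts for tRNA-Asp-GTC and tRNA-Gly-GCC, the other hosts that were compared, stand beside those of the glutamate set. Of the 20 fragments of tRNA-Asp-GTC (25 to 52 nt), 18 were tested, of which 14 were higher in LP and 4 lower. Their median log2 fold change was 1.8, near the 1.82 of the glutamate set. Of the 10 of tRNA-Gly-GCC (16 to 36 nt), 4 were higher and 6 lower. Among the 36 tested fragments of other hosts with 23 to 32 nt, the length range of the glutamate set, 22 were higher and 14 lower. These counts are a description, and the difference between hosts was not tested.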

How the data were processed

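RNA of 4 LP and 5 CD islet samples was demethylated and end-repaired, and libraries were made with a miRNA kit that adds molecular tags. The authors annotated tRFs against nuclear and mitochondrial tRNA collections, required 2 or more reads, and tested LP against CD by DESeq2. Which aligner and build were used, and how the tags served, is not given in the sources used here. FastQC is named in the submitters' processing notes. The deposited table has 255 rows, all called changed by the authors. Its raw counts were left unscaled by the authors. A second set of deposited columns, headed as normalized counts, holds values on a log2 scale, and a fit of DESeq2's variance-stabilising transformation to them left residuals of at most 5.7e-05 and gave the authors' size factors. The columns with the authors' own fold change, adjusted p and direction were not used.

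Rows were collapsed to 192 sequences, since rows of 1 sequence held identical values. Groups followed the sample titles. edgeR 4.0.16 (R 4.3.3) was fitted to the counts of the whole table with a minimum count of 10 (filterByExpr), and DESeq2 1.42.0 served as an alternative. The test was also run on simulated counts in which most fragments did not change. Most fragments of this table were called changed, so that run does not vouch for the calls here. The members, lists and tests were chosen with earlier results of these data known. Every glutamate fragment is named, and values per sample are printed for the 5 most abundant, the 2 largest and 2 smallest absolute fold changes and any that fell, and for Glu-TTC 29, which was added after its values were seen. Alternatives were no filter, other size factors, DESeq2, a replicate block, a 4-fold threshold and leaving out each sample. Low counts limit the precision, and PCR reads may not be independent molecules.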

Additional observations from a re-analysis of the deposited data

Results flagged for a closer look

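Each glutamate fragment, their sum, their share of the table and the mean length were searched in both groups for a sample set apart from the others, 34 sets of values in all. Such a sample was found in 4 sets, where chance gives about 1.7, and LP 4 was that sample in 2 of them. Gaps are given as parts of the group's whole range on a log2 scale. LP 4 stood below the other LP samples for Glu 28, with 174 normalized read counts where they had 343 to 385, a gap of 0.856. It did so for Glu 29b too, with 12.2 where they had 28.9 to 32.9, a gap of 0.869 that rests on 22 raw counts. LP 2 stood below the other LP samples for Glu-TTC 30, with 10.96 where they had 25.6 to 30.3, a gap of 0.834 that rests on 11 raw counts. CD 5 stood above the other CD samples for Glu 32, with 54.8 where they had 16.0 to 22.4, a gap of 0.725.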

How the results depend on the processing

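The alternatives were listed as planned, but with earlier results of these data known. The 13 higher fragments were past 2-fold and the adjusted p of 0.05 under each other filter, tool, scaling and left-out sample run. The authors had selected the rows on these same samples, so passing again in the same direction was largely fixed and is no independent support. In each of these runs 75 or 76 of all tested fragments were higher, against 75 of 181 in the main fit. With the 4-fold threshold 5 glutamate fragments were higher. The 1 lower fragment, Glu-TTC 30, was not called under 4 settings: with size factors from the table (DESeq2), TMM (edgeR), the replicate block or without CD 4, the count of lower fragments was 0. At an unadjusted p of 0.05 it was 0 with DESeq2, 1 with TMM, 0 with the block and 0 without CD 4. Leaving out each sample gave 13 higher and 0 to 1 lower. No glutamate fragment changed direction. The summed level of the 14 was 999.5 normalized read counts higher in LP than in CD, and 1759 with size factors from the table or 1547 with TMM. The share of the table was 6.94 percentage points higher in LP, and 5.14 without Glu 31. The difference in mean length, 0.236 nt, was under the spread between samples and depended on single samples: it was 0.0306 without CD 1, 0.102 without LP 4, 0.163 without LP 1, 0.385 without CD 5 and 0.405 without LP 3, and 0.420 without the most abundant of the 4 fragments.

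No pairing by replicate number was seen in the values. Deviations from the group means correlated at -0.401, 0.078, 0.058 and 0.006 for numbers 1 to 4, and 0 of 4 LP samples correlated best with its own number. Whether samples of the same number shared a litter or a preparation is not given, and these correlations cannot show that they did not. With the replicate number as a block, 13 fragments were higher and 0 lower, and the log2 fold change of Glu-TTC 30 was -1.68 (edgeR adjusted p = 0.0993).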

Other observations

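The T-loop motif is not particular to the glutamate fragments that were higher in LP. Among fragments of other hosts that hold GTTCGANNC and do not end in CCA, 46 were tested, of which 29 were higher in LP and 17 lower, with a median log2 fold change of 1.71. The ratio of Glu-TTC 24 to Glu-TTC 25, which differ by 1 base, ran from 0.860 to 4.10 in LP samples and from 1.12 to 2.75 in CD samples, on raw counts of 19 to 82 and of 4 to 20.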
